A study of Mus musculus with 6 samples.

Results

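The semaphorin, plexin, neuropilin, netrin, Unc5, Slit and Robo genes, the ligands and receptors of 3 classical guidance systems, were examined in mouse 3T3 fibroblasts with and without expression of human PARG (hPARG). Members were taken by gene name, as every Sema3 to Sema7, Plxn, Nrp, Ntn, Unc5, Slit1 to Slit3 and Robo1 to Robo4 row, and 46 of the 41819 genes in the deposited table matched: 20 semaphorins, 9 plexins, 2 neuropilins, 4 netrins, 4 Unc5 receptors, 3 Slits and 4 Robo receptors. The cells were 1 clone of 3T3 cells, a mouse embryo fibroblast line, transduced with a lentiviral TetOne cassette in which doxycycline switches on an hPARG cDNA together with the fluorescent protein mClover3. The 3 hPARG dishes received 500 ng/ml doxycycline for 72 h, and the 3 control dishes carried the same cassette without doxycycline. PARG is the enzyme that degrades poly(ADP-ribose). The study asked how the expression profile of these fibroblasts differs when hPARG is made. No cells with doxycycline and no cassette were among these libraries, so doxycycline and hPARG cannot be told apart, and the single clone limits the comparison to that clone. The labels call the cells malignant in type and name single wells, whereas the methods name dishes, which is the term kept below.

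Guidance genes were first known for steering growing axons, and they also act on the shape, adhesion and movement of fibroblasts and vessel cells. Semaphorins are secreted or membrane-bound ligands that signal mostly through plexins, and most of the secreted class needs a neuropilin as the binding partner of the plexin. Netrins act through Dcc, neogenin and the Unc5 receptors, and Slits act through Robo receptors.

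Library totals ran from 21619908 to 25263818 counts, and edgeR's low-count filter kept 11509 genes for testing. Levels within a gene are given as CPM, the TMM-normalized counts per library scaled to a common total, on which the floor of 3 counts lay at 0.117 to 0.141 in the 6 dishes (counting error only). The fibroblast label was checked on 12 markers, of which 9 were tested. Vim, encoding the intermediate filament vimentin, had a mean of 3631 CPM in the control and 3842 CPM with hPARG, and Col1a1, a chain of type I collagen, means of 278.5 and 416.4 CPM, whereas the small proteoglycan genes Dcn and Lum and the matrix gene Postn did not exceed 15 counts in any dish. None of the 9 fibroblast markers passed the FDR threshold of 0.05 in edgeR's quasi-likelihood test. An unadjusted p under 0.05, beside 3.95% of all tested genes, was found for 4 of them. The groups of the same 4 did not overlap, beside 9.62% of all tested genes. Col1a1, Col3a1 and Thy1 had higher values with hPARG, and Pdgfra had lower ones (63.8 CPM in the control and 48.4 CPM with hPARG). The summed level of the list was 7220 to 8400 CPM in the control and 8310 to 9530 CPM in the hPARG dishes. Markers of neurons (7 genes) summed to 17.1 to 30.6 CPM in the control and 23.2 to 27.5 CPM in the hPARG dishes, those of endothelium (7 genes, Emcn at 0 in every dish) to 1.08 to 1.60 and 0.871 to 1.20 CPM, those of epithelium (6 genes) to 0.585 to 1.13 and 0.642 to 0.963 CPM, and those of leukocytes (6 genes, 2 at 0 in every dish) to 9.08 to 10.4 and 6.26 to 9.77 CPM. Most of the leukocyte sum came from Cd14, with means of 9.43 CPM in the control and 8.07 CPM with hPARG. Itgam, the next highest, had 0.243 and 0.252 CPM. The highest neuron marker was Tubb3, at 10.5 and 10.8 CPM. Of the 6 tested neuron markers, Nefl alone had groups that did not overlap (1.08 and 1.85 CPM), with an unadjusted p of 0.0268 in edgeR's test. The part of these markers in the guidance gene values was not tested. In bulk RNA, fewer cells of a type and less RNA per cell cannot be told apart.

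The guidance transcripts of these fibroblasts differed widely in level. Of the 46 genes, 16 had more than 1 RPKM in the group with the higher mean, 10 had more than 5 RPKM and 3 had more than 10 RPKM (RPKM, reads scaled to gene length and library total, as the authors deposited them). Those 3 were all receptors, namely Plxnb2, Nrp2 and Plxna1. At the other end, 9 genes did not exceed 3 counts in any dish: Sema3d, Sema3e, Sema4f, Sema5b, Sema6d, Ntn4, Ntn5, Plxna4 and Robo4. A further 13 genes exceeded 3 counts in some dish but did not pass the filter, with at most 17 counts in any dish: Sema3g, Sema4a, Sema4d, Sema6a, Sema6b, Ntn3, Plxnb3, Plxnc1, Unc5a, Unc5c, Unc5d, Robo1 and Robo2. The remaining 24 genes were tested: 10 semaphorins, 6 plexins, both neuropilins, Ntn1, Unc5b, the 3 Slits and Robo3.

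Among the ligands, 5 semaphorins exceeded 1 RPKM. Sema3f, a secreted semaphorin that binds Nrp2, measured 6.91, 7.15 and 5.38 RPKM in the control dishes and 7.12, 8.87 and 5.93 RPKM in the hPARG dishes. Sema3a, the secreted ligand of Nrp1 first known for collapsing growth cones, measured 5.28, 6.59 and 5.69 RPKM in the control and 5.51, 7.01 and 6.94 RPKM in the hPARG dishes. Sema7a, which is held to the membrane by a lipid anchor, measured 7.63, 5.95 and 6.95 RPKM in the control and 6.32, 5.07 and 6.21 RPKM in the hPARG dishes. The ranges of these 3 ligands overlapped one another, and within each gene the hPARG range overlapped the control range. The transmembrane semaphorins Sema4b (4.63 to 6.45 RPKM over the 6 dishes) and Sema4c (3.05 to 3.38 RPKM) completed the group above 1 RPKM. Together, the semaphorins summed to 27.8 to 31.1 RPKM in the control and 28.7 to 33.1 RPKM in the hPARG dishes.

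Slit2, a large secreted Robo ligand, was the main Slit. It measured 6.01, 9.22 and 5.59 RPKM in the control dishes and 5.35, 8.44 and 5.99 RPKM in the hPARG dishes, and the dishes numbered 2 were the highest of both groups. It made up 81.8, 82.2 and 82.8% of the summed Slit RPKM in the control, against 81.6, 87.8 and 87.5% in the hPARG dishes. Slit3 held most of the rest and Slit1 did not exceed 0.0793 RPKM. No netrin reached 1 RPKM: the 4 netrins summed to 0.106 to 0.227 RPKM in the control and 0.0394 to 0.101 RPKM in the hPARG dishes.

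Plxnb2, a plexin that binds class 4 semaphorins such as Sema4c, had the highest level of the 46 genes. It measured 54.5, 70.0 and 44.2 RPKM in the control dishes and 50.4, 72.9 and 50.4 RPKM in the hPARG dishes, with the dishes numbered 2 highest in both groups and overlapping group ranges. Its mean of 57.1 RPKM lay above 90.5% of all tested genes, and its lowest dish lay above the highest dish of every other guidance gene. Plxnb2 supplied 65.1 to 70.8% of the summed plexin RPKM of a dish, and Plxna1, a signalling partner of neuropilins, 17.9 to 22.0%. Plxna3, another neuropilin partner, followed with 3.82 to 6.10 RPKM, and Plxnd1, Plxnb1 and Plxna2 had means of 2.01, 1.89 and 1.66 RPKM.

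Nrp2 outweighed Nrp1 in every dish. Nrp2, the neuropilin that binds Sema3f, measured 16.7, 25.5 and 15.5 RPKM in the control and 14.5, 20.9 and 13.8 RPKM in the hPARG dishes. Nrp1, the receptor of Sema3a and a co-receptor of VEGF, measured 3.79, 4.20 and 3.14 RPKM in the control and 4.44, 4.85 and 3.91 RPKM in the hPARG dishes. The groups overlapped for both genes on this scale. Unc5b, a netrin receptor also known from vessels, measured 5.53 to 8.19 RPKM over the 6 dishes and made up 98.9 to 99.7% of the summed Unc5 RPKM of a dish. The 4 Robo receptors together reached only 0.135 to 0.268 RPKM, mostly from Robo3, a divergent Robo of midline-crossing axons, at 0.103 to 0.224 RPKM.

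**Figure D1:**
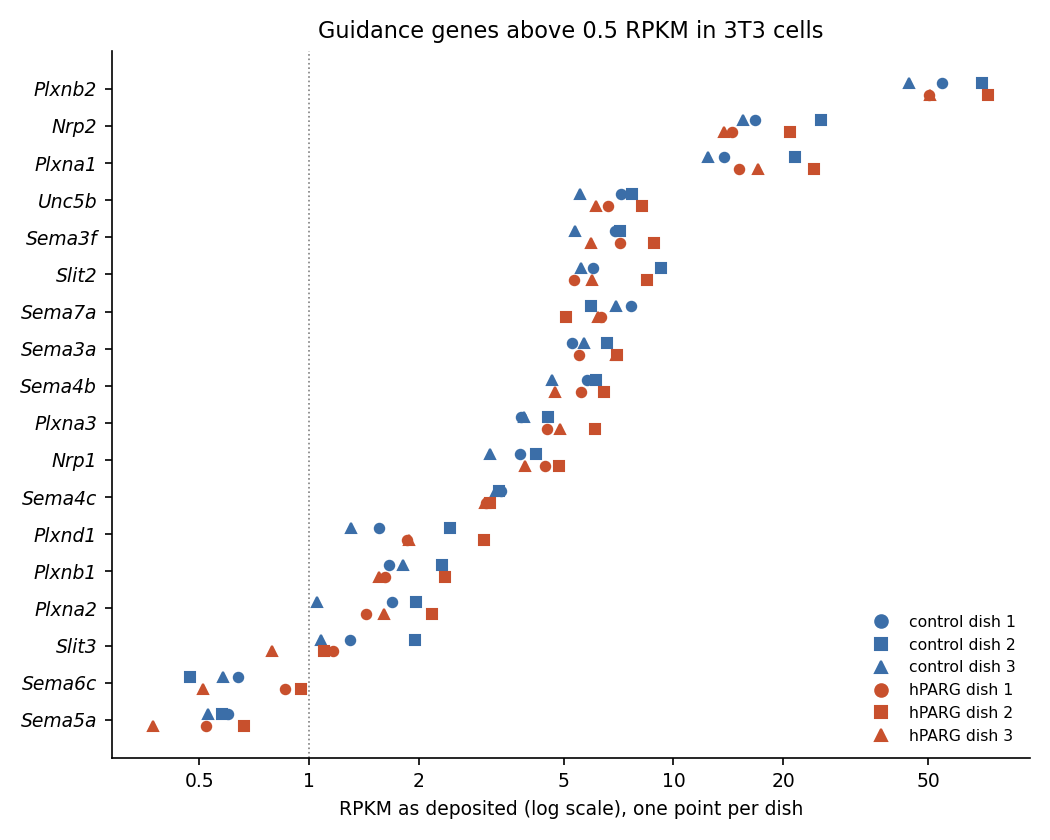
Deposited RPKM (log scale) of the 18 guidance genes with more than 0.5 RPKM in the group with the higher mean, ordered by the mean over 6 dishes. Each point is 1 dish, with control dishes in blue and hPARG dishes in orange and the marker shape giving the dish number. Plxnb2 stands clear of all others at 44.2 to 72.9 RPKM, and neighbouring genes from Unc5b to Plxna3 overlap.

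In the order of mean RPKM of the 18 genes above 0.5 RPKM, only 3 steps separated neighbours without overlap of their dish values: from Plxnb2 to Nrp2, from Plxna1 to Unc5b and from Sema4c to Plxnd1. All other neighbours overlapped, so the order of Unc5b, Sema3f, Slit2, Sema7a, Sema3a and Sema4b within 5.56 to 6.90 RPKM is not resolved by these dishes. The order also depended on the gene length used, since the length behind the deposited RPKM is not stated. With the length of the longest annotated transcript, the 6 highest genes were the same 6 genes. With the length of all exons joined, 5 of 6 were shared. On that scale Slit2 lay at 2.92 RPKM, Sema3a at 3.14 RPKM and Nrp1 at 1.62 RPKM.

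Several known ligand and receptor pairs were present on 1 side only. Slit2 at a mean of 6.77 RPKM contrasted with at most 8 counts in any dish for Robo1 and Robo2, its main receptors. Gpc1 and Dag1, from the list of Slit processing and binding genes described below, lay at 50.1 and 20.5 RPKM in the control. With hPARG they lay at 51.8 and 22.9 RPKM. Sema7a at 6.36 RPKM contrasted with at most 7 counts for its plexin, Plxnc1, and of the chains of its integrin receptor, alpha 1 and beta 1, Itga1 did not exceed 3 counts while Itgb1 lay at 236.8 RPKM in the control and 241.1 RPKM with hPARG. On the receptor side, Plxnd1 was measured at 2.01 RPKM with at most 3 counts for its ligand Sema3e, and Plxnb1 at 1.89 RPKM with at most 14 counts for its ligand Sema4d. The netrin receptors Unc5b and neogenin (Neo1, 15.0 RPKM in the control and 14.5 RPKM in the hPARG dishes) were present, Ntn1 lay at a mean of 0.0815 RPKM, and Dcc did not exceed 6 counts. Other ligands of these netrin receptors were present. Flrt2, an Unc5 ligand, lay at 9.18 RPKM in the control and 8.37 RPKM with hPARG. The neogenin ligands Rgma and Rgmb lay at 8.78 and 5.41 RPKM in the control and at 7.81 and 4.89 RPKM with hPARG. Sema3f with Nrp2 and Plxna1, Sema3a with Nrp1 and Plxna1, and Sema4c with Plxnb2 were also measured above 1 RPKM on both sides.

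The sequence just before the start of the genes was read for 38 of the 46 guidance genes in RefSeq (GRCm38.p6), as the 250 bases upstream of an annotated transcript start. For genes with several windows, the one with the most CG dinucleotides was taken, and in 32 of the 38 genes it ended within 1000 bases of the gene start in GENCODE. The 14 guidance genes above 1 RPKM with a window held a median of 21.5 CG dinucleotides, beside 18 in the 8020 protein-coding genes above 1 RPKM. The 8 guidance genes at 3 counts or fewer held a median of 5.5, beside 3 in the 5878 protein-coding genes at that level. With the window of fewest CG instead, the medians were 17.5 beside 16, and 5 beside 2. The contrast was not uniform within the guidance genes, since Ntn4 and Sema5b, at the floor, had 26 and 19 CG dinucleotides. Sema3a, above 1 RPKM, had 2, in a window 271370 bases inside the gene in GENCODE. The windows of Sema4b and Plxna2, also above 1 RPKM, did not end within 1000 bases of the gene start either. The letters TATAAA, on either strand, occurred in 1 guidance gene, Slit2, which is 2.63% of the guidance genes beside 11.5% of all protein-coding genes, and 7.14% of those above 1 RPKM beside 4.98%. Shown here, as examples of the windows that end at the first base of the gene, are those of the highest plexin (Plxnb2, chr15:89180789-89181038, minus strand, 20 CG), of Plxna3 (chrX:74328816-74329065, plus strand, 12 CG), and of Ntn5, a netrin that did not exceed 3 counts (chr7:45683772-45684021, plus strand, 2 CG). They are written 5′ to 3′ in the direction of the gene with CG dinucleotides in capitals.
Plxnb2: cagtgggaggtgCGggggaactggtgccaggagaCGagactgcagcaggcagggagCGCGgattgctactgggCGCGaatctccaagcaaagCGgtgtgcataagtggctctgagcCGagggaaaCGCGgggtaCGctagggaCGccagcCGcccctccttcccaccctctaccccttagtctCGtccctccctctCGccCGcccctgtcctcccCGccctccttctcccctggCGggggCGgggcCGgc
Plxna3: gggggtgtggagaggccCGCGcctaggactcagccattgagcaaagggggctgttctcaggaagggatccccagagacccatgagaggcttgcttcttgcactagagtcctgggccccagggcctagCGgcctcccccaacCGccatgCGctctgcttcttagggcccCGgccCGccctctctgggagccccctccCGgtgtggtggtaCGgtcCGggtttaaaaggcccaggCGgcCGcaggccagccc
Ntn5: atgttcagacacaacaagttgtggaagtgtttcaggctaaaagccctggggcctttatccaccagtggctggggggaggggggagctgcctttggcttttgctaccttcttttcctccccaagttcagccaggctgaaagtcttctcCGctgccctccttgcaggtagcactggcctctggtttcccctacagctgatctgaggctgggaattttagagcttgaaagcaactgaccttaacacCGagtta

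None of the 24 tested guidance genes differed between hPARG and control beyond the threshold. The estimates of 14 genes were higher and of 10 genes lower in the hPARG dishes, and their median log2 fold change (hPARG minus control) was 0.07, beside 0.00 over all 11509 tested genes. The lowest estimate was that of Ntn1, at -2.23, and the highest that of Sema4g, at 0.64. In edgeR's quasi-likelihood test, 0 of 24 passed an FDR of 0.05 with a change over 2-fold, beside 10 of all tested genes (0.0869%), and 0 of 24 passed the FDR at any fold. DESeq2 also called 0 of 24. At an unadjusted p under 0.05 there were 2, Ntn1 and Plxna3, beside 3.95% of all tested genes. The adjusted p was 0.999 for every tested guidance gene except Ntn1. P-values here measure the spread between dishes of 1 clone, which may be technical.

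The precision differed between the genes. For 17 of 24 the 95% interval of the difference lay within 2-fold either way, beside 90.8% of all tested genes, and for 11 of 24 within 1.5-fold, beside 71.1%. The 7 genes whose interval reached beyond 2-fold were Ntn1, Slit1, Robo3, Sema3b, Sema3c, Sema4g and Sema6c, of which only Sema6c exceeded 0.5 RPKM. In 4 of 24 genes the CPM values of the groups did not overlap, beside 9.62% of all tested genes. In Nrp1 and Plxna3 all hPARG dishes lay above all control dishes (3.61% of all tested genes), and in Ntn1 and Sema4c they lay below (6% of all tested genes).

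**Figure D2:**
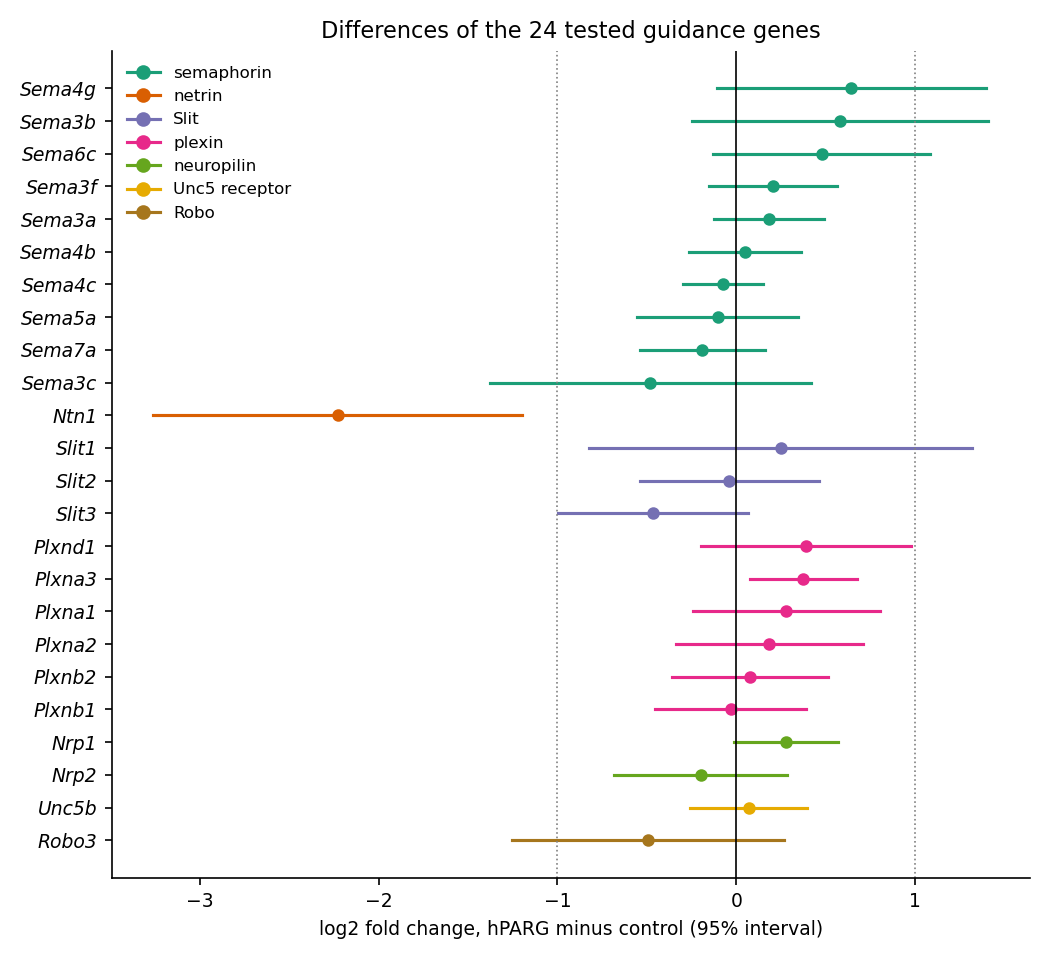
Log2 fold change (hPARG minus control) of the 24 tested guidance genes in edgeR's quasi-likelihood fit, coloured by family. Points are estimates, lines are 95% intervals and dotted lines mark 2-fold either way. The interval of Ntn1 lies from -3.26 to -1.20, that of Plxna3 from 0.08 to 0.68, and all others include 0.

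Ntn1, the founding netrin, had the largest estimated difference and few counts. It is a protein-coding gene on the minus strand of chromosome 11 (GRCm38, 68209364 to 68400823). Its counts were 29, 24 and 12 in the control dishes and 3, 5 and 5 in the hPARG dishes, which is 1.13, 1.03 and 0.566 CPM against 0.138, 0.206 and 0.229 CPM. All hPARG dishes lay below all control dishes, hPARG dish 1 lay at the floor of 3 counts, and no dish exceeded 0.168 RPKM. The log2 fold change was -2.23 ± 0.445 (SE, n = 3 per group), with an unadjusted p of 0.00113 and an adjusted p of 0.419 in edgeR's test. Pooled over the dishes, the hPARG level was 0.206 times the control level (95% exact interval 0.104 to 0.378, counting error only). Leaving out 1 dish at a time, the estimate ranged from -2.47 to -2.03 and the adjusted p in edgeR's test from 0.255 to 0.9999. Over the other settings that tested it, the adjusted p ranged from 0.0501 to 0.448, and with a minimum of 10 counts in every dish Ntn1 was not tested.

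Among the semaphorins, 6 of 10 estimates were higher in the hPARG dishes and none passed the test. Sema3f differed by 0.21 ± 0.155 (log2, SE), Sema3a by 0.18 ± 0.133, Sema4b by 0.05 ± 0.136 and Sema7a by -0.19 ± 0.151. The difference of Sema4c was small against a tight spread: its CPM was 15.4, 14.8 and 15.6 in the control dishes and 14.3, 14.4 and 14.7 in the hPARG dishes. The groups were narrowly separate, with the nearest dishes at 14.8 and 14.7 CPM, and the fitted difference was -0.08 with an interval of -0.30 to 0.15. Annotated exons of the antisense gene D430040D24Rik cover 7.27% of the Sema4c exons, and reads of the pair cannot be told apart because the use of strand in the counting is not stated.

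The 5 tested semaphorins under 1 RPKM had the wider intervals of the family. Sema4g, a transmembrane semaphorin, measured 0.663, 1.03 and 1.37 CPM in the control and 1.33, 1.86 and 1.56 CPM in the hPARG dishes, a difference of 0.64 ± 0.325 with overlapping groups. Sema3b, a secreted semaphorin, differed by 0.58 ± 0.358 and Sema6c by 0.48 ± 0.261, with overlap in both. In the other direction, Sema3c, another secreted member, differed by -0.48 ± 0.388, and its control dish 3, at 1.51 CPM, lay above the other control dishes at 0.703 and 0.860 CPM (-0.11 without it). Sema5a, which carries thrombospondin repeats, differed by -0.10 ± 0.195.

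Slit3 was lower by estimate in the hPARG dishes, and its groups overlapped. It measured 7.26, 10.7 and 6.32 CPM in the control and 6.69, 6.18 and 4.68 CPM in the hPARG dishes, and control dish 2 was the highest of all. The fitted difference was -0.47 ± 0.230, with an interval of -0.999 to 0.07, and it was -0.22 without control dish 2. Slit2 differed by -0.04 with an interval of -0.54 to 0.46. For Slit1, which did not exceed 0.519 CPM, the interval ran from -0.82 to 1.32.

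Of the 6 tested plexins, 5 had higher estimates in the hPARG dishes, Plxnb1 at -0.03 being the exception. Plxna3 (chromosome X, plus strand, GRCm38 74329066 to 74344689), whose upstream window is printed above, measured 28.4, 32.7 and 30.2 CPM in the control and 34.4, 45.5 and 38.4 CPM in the hPARG dishes. Every hPARG dish lay above every control dish. The difference was 0.38 ± 0.129, with an unadjusted p of 0.0202 and an adjusted p of 0.999 in edgeR's test.

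Plxna1 measured 133.5, 202.8 and 125.9 CPM in the control and 150.7, 236.0 and 174.9 CPM in the hPARG dishes. The groups overlapped because control dish 2 exceeded hPARG dishes 1 and 3, and the difference was 0.28 ± 0.226 (0.08 without hPARG dish 2 and 0.53 without control dish 2). The annotated antisense gene Gm26811 covers 10.7% of the Plxna1 exons and was at 0 counts in every dish. Plxnd1, a plexin of vessel patterning, measured 11.5, 17.6 and 10.1 CPM in the control and 14.1, 22.4 and 14.8 CPM in the hPARG dishes, an overlapping difference of 0.39 ± 0.253 (0.14 without hPARG dish 2 and 0.66 without control dish 2). Plxnb2, the most abundant plexin, differed by 0.08 with an interval of -0.36 to 0.51, and Plxna2 by 0.19 ± 0.225.

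The neuropilins had estimates in opposite directions. Nrp1 (chromosome 8, plus strand, GRCm38 128358604 to 128503363) measured 14.6, 15.8 and 12.6 CPM in the control and 17.6, 18.8 and 15.9 CPM in the hPARG dishes. The groups did not overlap, but the nearest dishes lay at 15.8 and 15.9 CPM, and the difference was 0.28 ± 0.125 with an interval of -0.01 to 0.57. Nrp2 (chromosome 1, plus strand, GRCm38 62703285 to 62818695) measured 186.2, 275.8 and 179.8 CPM in the control and 164.9, 232.8 and 161.9 CPM in the hPARG dishes. Its groups overlapped, with both dishes numbered 2 on top, and the difference was -0.20 with an interval of -0.68 to 0.29. Among the other receptors, Unc5b differed by 0.07 ± 0.141, and Robo3, which did not exceed 1.33 CPM, by -0.50 ± 0.329.

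**Figure D3:**
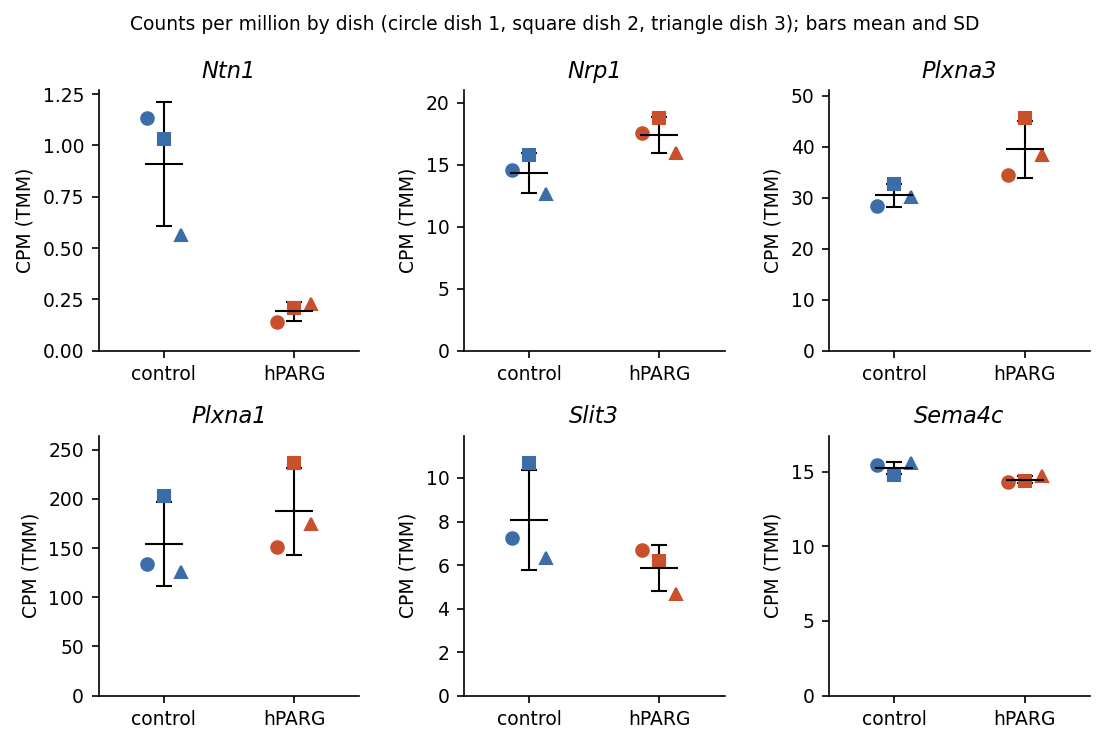
CPM per dish of the 4 guidance genes whose groups did not overlap (Ntn1, Nrp1, Plxna3, Sema4c) and of Plxna1 and Slit3. Circles, squares and triangles are dishes 1, 2 and 3, horizontal bars are means and vertical bars are SD (n = 3). Ntn1 lies at 0.138 to 0.229 CPM in the hPARG dishes against 0.566 to 1.13 CPM in the control, while the groups of Nrp1 and Sema4c are separated by narrow gaps.

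The makeup of each family was compared as the share of a gene in its family's summed RPKM, which does not depend on the total of the dish. The size of a share does depend on the gene lengths behind the RPKM, which are not stated. Nrp1 made up 18.5, 14.2 and 16.9% of the neuropilin RPKM in the control dishes and 23.5, 18.9 and 22.1% in the hPARG dishes, so that the ratio of Nrp2 to Nrp1 was 4.42, 6.05 and 4.93 against 3.26, 4.30 and 3.52. The groups did not overlap, with a difference of 4.99 percentage points in the share of Nrp1. Of 17 shares compared, 4 did not overlap between the groups. This count has no background of its own here, since the 9.62% of all tested genes refers to CPM of single genes, a different measure. The shares of Nrp1 and Plxnd1 were higher in the hPARG dishes, and those of Plxnb2 and Sema4c were lower. Shares within a family are tied to one another, so those of Plxnb2 and Plxnd1 are not separate observations. Plxnb2 made up 70.8, 68.1 and 68.2% of the plexin RPKM in the control, against 67.2, 65.7 and 65.1% with hPARG, and Plxnd1 2.02, 2.37 and 2.02% against 2.48, 2.72 and 2.44%. Each of the 4 had an exact two-sided permutation p of 0.1, the smallest that 3 dishes against 3 can give, and 0.425 after adjustment over the 17 shares, so none passed.

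The dishes numbered 2 stood apart within both groups, and most of the long guidance genes were high in them. The tested guidance genes are long, with a median of 7220.5 bases of annotated exon against 4548 for all tested genes. Relative to the mean of their own group, 16 of 24 guidance genes were high in control dish 2 and 19 of 24 in hPARG dish 2. Their median deviation (log2 CPM) was 0.12 and 0.22 there, whereas the medians of the other 4 dishes lay between -0.18 and -0.01. Of all tested genes, 50.8% were high in control dish 2 and 52.5% in hPARG dish 2, with median deviations of 0.0063 and 0.0152. Over all 11509 tested genes, which share these libraries, Spearman's rho between exon length and the deviation reached 0.530 and 0.521 in the control and hPARG dishes numbered 2, and between -0.513 and -0.252 in the other dishes. Over the 24 guidance genes it was 0.508 and 0.548 in the dishes numbered 2. Plxnb2, Plxna1, Plxnd1, Nrp2 and Slit2 all had their highest value of each group in dish 2, while the shorter Sema7a had its lowest there.

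**Figure D4:**
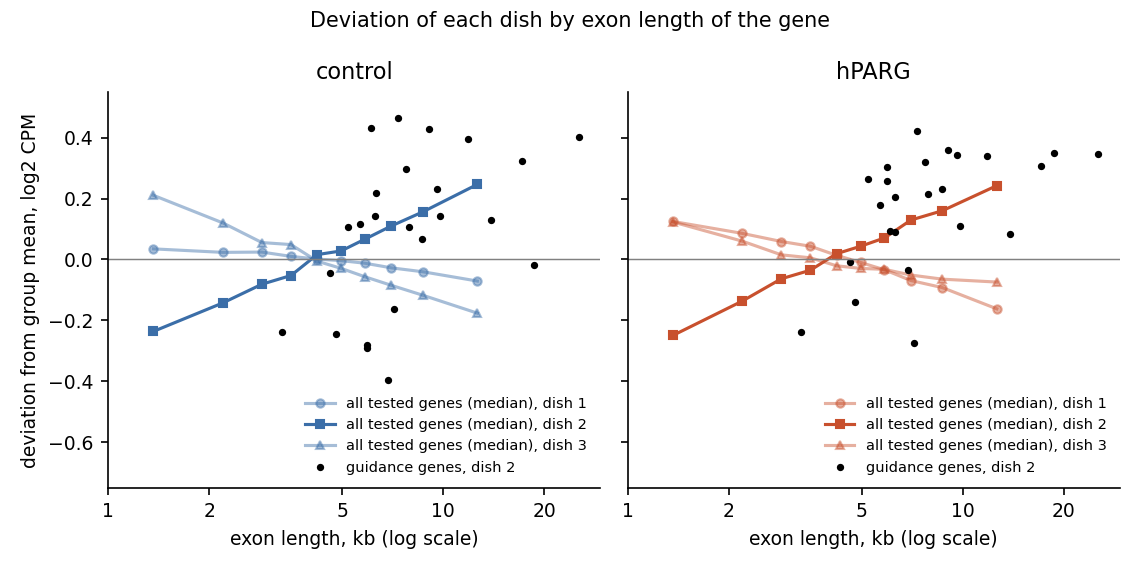
Deviation of a dish from its group mean (log2 CPM) against the exon length of the gene (kb, log scale), control on the left and hPARG on the right. Lines join the medians of all tested genes in 10 length classes of equal size for each dish, and black points are the 24 guidance genes in dish 2. The lines of both dishes numbered 2 climb with length, and most guidance genes lie on the long side and above 0.

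Without both dishes numbered 2, 0 of 24 guidance genes passed the FDR at any fold, and 11 of 24 did not overlap between the remaining 2 dishes of each group, beside 35.4% of all genes tested in that fit. The difference of Plxna1 was 0.33, of Plxna3 0.32, of Plxnd1 0.42, of Nrp1 0.30 and of Ntn1 -2.19 in that fit, and that of Slit3 was -0.25 and of Slit2 0.00. With GC content and exon length corrected for, 0 of 24 passed the FDR. An unadjusted p under 0.05 was found for 6, and the share over all genes in that fit is not given here. In 4 of 24 the groups did not overlap in that fit, beside 12.6% of all tested genes.

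None of the tested genes that work with these ligands and receptors passed the threshold either. A list of 62 other receptors, co-receptors and effectors was followed, of which 46 were tested. None passed the FDR threshold in edgeR's test, none had an unadjusted p under 0.05, and 33 estimates were higher and 13 lower in the hPARG dishes, with a median log2 fold change of 0.05 and a range of -0.18 to 0.65. In 1 of the 46, beside 9.62% of all tested genes, the groups did not overlap. This was Limk1, the kinase that phosphorylates cofilin, with 38.0 ± 3.15 CPM in the control and 44.1 ± 4.005 CPM in the hPARG dishes.

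By role, 4 of 11 netrin and RGM partners were tested, and the most abundant were Neo1 (119.0 ± 23.1 CPM in the control and 117.7 ± 21.1 CPM in the hPARG dishes), Flrt2, an Unc5 ligand (76.1 ± 13.5 and 71.1 ± 7.58 CPM), and Rgmb, a neogenin ligand (44.0 ± 3.75 and 40.8 ± 1.42 CPM). Of 11 semaphorin co-receptors, 7 were tested, led by Itgb1 (993.2 ± 26.4 and 1034 ± 65.6 CPM), Met, a receptor kinase that associates with class B plexins (179.6 ± 36.1 and 191.1 ± 37.3 CPM), and Gipc1, an adaptor of neuropilin (117.3 ± 13.0 and 114.7 ± 12.9 CPM). Among 35 cytoplasmic effectors 31 were tested, led by Cfl1, encoding cofilin, which severs actin filaments (1173 ± 80.4 and 1148 ± 58.4 CPM), Rras2, a Ras-family GTPase of the kind that plexins act on (168.4 ± 14.8 and 180.5 ± 10.8 CPM), and Dpysl3, of the collapsin response mediator family (157.2 ± 29.1 and 172.0 ± 38.7 CPM). For the Slits, 4 of 6 processing and binding genes were tested, led by the heparan sulfate proteoglycan Gpc1 (224.9 ± 14.9 and 237.9 ± 14.7 CPM), the matrix receptor Dag1 (135.8 ± 30.5 and 155.5 ± 34.3 CPM) and the Robo-binding deubiquitinase Usp33 (90.0 ± 8.10 and 86.4 ± 6.45 CPM). All these values are means ± SD (n = 3), and the groups overlapped for each of these 12 genes.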

How the data were processed

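The RNA of 6 dishes of 1 clone was analysed, 3 control and 3 hPARG, grouped by the labels. Poly(A) libraries were read as 150 bp paired ends, and the authors mapped them to GRCm38 with Ensembl release 96 in CLC Genomics Workbench 12.0. The authors deposited counts per gene, whole numbers without normalization, and RPKM, for which the library total and gene length are not stated. TPM and CPM columns (12) and the authors' own comparison columns of fold changes and p-values (6) were not used.

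Counts were filtered with filterByExpr (minimum count 10), scaled by TMM and tested with edgeR 4.0.16 (quasi-likelihood, R 4.3.3), with Benjamini-Hochberg FDR over 11509 genes. Calls needed an FDR under 0.05 and over 2-fold. The fit was tested on simulated data. Exon lengths and coordinates came from GENCODE M21 (GRCm38). Alternatives were DESeq2 1.42.0, other scalings and filters, a replicate block, a GC and length correction, and leaving dishes out.

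The members and lists were chosen with earlier results of these data known. All members were accounted for, and those passing the filter were named with values. Of the related lists, the 3 genes with the highest mean CPM were named. Limk1, Rgma, Vim, Col1a1, Col3a1, Thy1, Pdgfra, Dcn, Lum, Postn, Tubb3, Nefl, Cd14, Itgam, Itga1 and Dcc were named after their values were seen. Expression of the hPARG cassette itself was not analysed here.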

Additional observations from a re-analysis of the deposited data

How the results depend on the processing

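No guidance gene passed both thresholds under any alternative. For all genes called, 10 in the comparison as reported, the count was 22 with DESeq2, 16 without a filter, 19 with the GC and length correction, 19 without both dishes numbered 2, and 3 to 13 when 1 dish was left out, the lowest without hPARG dish 1. The count of guidance genes whose groups did not overlap, 4, was 11 without both dishes numbered 2 (beside 35.4% of all genes tested), 4 to 8 when 1 dish was left out (beside 14.7 to 23.7%), and 3 with DESeq2, with RLE factors, with library size alone or with at least 10 counts in every dish (beside 9.7 to 10.2%).

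The replicate numbers did not meet the rule used here for pairing: deviations of same-numbered dishes correlated at 0.0963, 0.610 and 0.168 (threshold 0.1 for every pair). Control dishes 1 and 3 correlated best with hPARG dishes of another number. A replicate block nonetheless lowered the common coefficient of variation between dishes that edgeR fitted, from 0.148 to 0.0615. With the replicate block 23 genes were called in all, and 25 with the block and the GC and length correction. With the block, 3 guidance genes passed the FDR at any fold, beside 2.87% of all tested genes: Plxna1 (0.29, adjusted p 0.0320 in edgeR), Plxna3 (0.37, 0.0161) and Plxnd1 (0.39, 0.0429). With block and correction there were also 3, beside 2.84%: Nrp2 (-0.26, adjusted p 0.0364 in edgeR), Plxna1 (0.23, 0.0344) and Plxna3 (0.32, 0.0364).

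The direction was the same in every fit for 16 of 24 guidance genes. It changed when 1 dish was left out for Nrp2 (-0.39 to 0.0282), Slit2 (-0.23 to 0.19), Plxnb1 (-0.23 to 0.0949), Sema4b (-0.0465 to 0.14), Unc5b (-0.0405 to 0.14), Plxnb2 (-0.10 to 0.24), Plxna2 (-0.0129 to 0.35) and Sema5a (-0.30 to 0.0683), and for Slit2 also without both dishes numbered 2 (0.0013). Leaving out 1 dish also moved Sema3c (-0.69 to -0.11), Sema3f (0.06 to 0.32), Plxnd1 (0.14 to 0.66) and Plxna1 (0.08 to 0.53) without a change of direction. The cause was not tested. The 22 genes below the filter, with at most 17 counts in any dish, had wide intervals when fitted without it.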

Other observations

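The Eph receptors and ephrins, membrane-bound guidance molecules that signal in both directions at cell contacts, were followed in the same fit. Of the 22 genes listed, 14 were tested and 2 did not exceed 3 counts in any dish. None passed the FDR threshold in edgeR's test or had an unadjusted p under 0.05, and 6 estimates were higher and 8 lower in the hPARG dishes, with a median log2 fold change of -0.01 and a range of -0.27 to 0.42. The most abundant were Efnb2, a transmembrane ephrin (189.6 ± 41.6 CPM in the control and 161.5 ± 11.8 CPM in the hPARG dishes, SD, n = 3), Epha2, a receptor kinase (148.6 ± 31.3 and 125.7 ± 10.9 CPM), and Ephb4, a receptor of Efnb2 (117.0 ± 8.49 and 121.1 ± 9.07 CPM). No group of the 14 failed to overlap.

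Plxnc1, the plexin of Sema7a, was below the filter on low counts. Its counts were 1, 2 and 1 without doxycycline and 3, 7 and 5 with it, a pooled ratio of 3.87 with an exact counting interval of 1.23 to 16.0, which does not cover the spread between dishes. Fitted without the filter, its log2 fold change was 1.85 ± 0.815 (SE), with an unadjusted p of 0.0447 and an adjusted p of 0.998 in edgeR's test. Plxnc1 was the only 1 of the 22 genes below the filter with an unadjusted p under 0.05 there. The share over all genes in that fit is not given here, so this count cannot be judged. It was picked out after the counts of these 22 genes had been seen.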
